A study of Mus musculus with 12 samples.

Results

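Mammary tumors of MMTV-Neu mice fed bexarotene were compared with tumors of MMTV-Neu mice fed the control diet, gene by gene, by RNA sequencing. All tumors share a transgene: a viral promoter, MMTV, that is active in the mammary gland drives Neu, the rodent counterpart of the receptor HER2, in a form without an activating mutation. The study used females whose tumor had grown to 4 mm in diameter, and then fed the control diet or bexarotene at 100 mg per kg of diet for 10 days. The ages of the mice are not given in the sources used here. The comparison rests on 8 of the 12 tumors of the series, 4 per diet and each from a separate mouse, and on all 15504 of the 54532 listed genes that passed a filter on low counts. Another group of 4 tumors from mice fed MSU-42011, another agonist of the same receptor, at the same dose in the diet and for the same time, is given beside it for some genes and shares the control tumors. Between 17353794 and 25925027 reads per tumor were counted in the bexarotene group and between 17192534 and 24223315 in the control group. At this depth 3 reads, taken as the lowest count to be read, correspond to at most 0.174 CPM (counts scaled to the size of the library) in the 8 tumors before normalization. On the normalized scale used for the levels below, 3 reads stand at 0.184 CPM in bexarotene tumor 4.

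Bexarotene is a ligand of the retinoid X receptors (RXRs), which sit on DNA as dimers with themselves or with other nuclear receptors, such as the retinoic acid, liver X (LXR), vitamin D and peroxisome proliferator-activated receptors (PPARs). A ligand changes which cofactors the dimer recruits and with this the transcription of nearby genes. LXR dimers are known for genes of lipid synthesis and cholesterol export, and PPAR dimers for genes of fatty acid use and storage. A mammary tumor also holds fibroblasts, vessels and immune cells, and in RNA from whole tissue a lower level of a gene can come from fewer cells of a type or from less RNA per cell, which cannot be told apart.

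None of the tested receptor genes nor the driving oncogene passed the test between the diets. Rxra, which encodes RXR alpha, stood at 103, 58.6, 73.0 and 64.4 normalized CPM in bexarotene tumors 1 to 4 and at 80.8, 118, 81.1 and 84.2 CPM in control tumors 1 to 4. Bexarotene tumors 2 to 4 lay below every control tumor and tumor 1 lay among them, and the log2 fold change was -0.28 ± 0.23 (SE), with an adjusted p of 0.896 by edgeR's quasi-likelihood test, and -0.48 ± 0.21 without tumor 1. Rxrb, the beta receptor, stood at 62.9 to 74.0 CPM with bexarotene and 57.6 to 86.3 CPM in the controls, while Rxrg, the gamma receptor, had at most 6 reads in any of the 8 tumors and was not tested. Erbb2, the gene of the receptor that the transgene encodes, stood at 103 to 130.4 CPM with bexarotene and 123 to 144 CPM in the controls, with a log2 fold change of -0.20 ± 0.17. The counts do not tell the transgene from the mouse's own gene, and Erbb2 shares part of its stretch of chromosome with Mien1 on the other strand, so that reads in the overlap may belong to either gene. Krt8, a keratin of luminal mammary epithelium, stood at 485 CPM in bexarotene tumor 1 and at 889 to 1225 CPM in the other 7 tumors.

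Few or no genes differed between the diets by more than the spread between tumors, depending on the tool. EdgeR called 0 of 15504 genes (0%) at an adjusted p under 0.05, and the smallest adjusted p was 0.762. At an unadjusted p under 0.05, 694 genes (4.48%) lay higher with bexarotene and 304 (1.96%) lay lower. DESeq2 at its default settings called 6 of 16872 genes with an adjusted p (0.0356%), all of them higher, which are described with their values further on. The p-values set the difference between the diets against the spread between tumors of a group, which was estimated from all 12 tumors. The spread was not equal among the bexarotene tumors: without tumor 1, edgeR again called 0 genes, and at the same unadjusted threshold 250 of 15619 genes (1.60%) lay higher with bexarotene and 273 (1.75%) lay lower. The share of higher genes among these was 69.5% with tumor 1 and 47.8% without it. Of the 694 higher genes, 379 were at least 2-fold above the whole range of the controls in bexarotene tumor 1 and in no other bexarotene tumor, and 114 were higher in all 4 bexarotene tumors than in all 4 control tumors. Of the 694 genes, 156 were also higher at an unadjusted p under 0.05 without tumor 1, as 154 of the 304 lower genes were lower.

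Counted tumor by tumor, bexarotene tumor 1 stood apart from all others. Distances were taken on the scale of log2(normalized CPM + 0.5), and a gene was counted where a tumor lay at least 2-fold above the highest or below the lowest control tumor. In bexarotene tumor 1, 1180 genes lay above this range and 17 below. The other bexarotene tumors had 115, 21 and 31 genes above and 44, 30 and 43 below, and the 4 MSU-42011 tumors had 29 to 86 above and 14 to 66 below. In tumor 1 alone among the bexarotene tumors, 1072 genes lay above (6.91% of those tested) and 13 below (0.0838%), against 13 to 16 above and 28 to 36 below for each other bexarotene tumor alone. Tumors 1 and 2, and not 3 or 4, shared 90 genes above the range. Only 4 genes (0.0258%) lay at least 2-fold above the control range in all 4 bexarotene tumors, and 0 (0%) lay 2-fold below it in all 4.

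**Figure D1:**
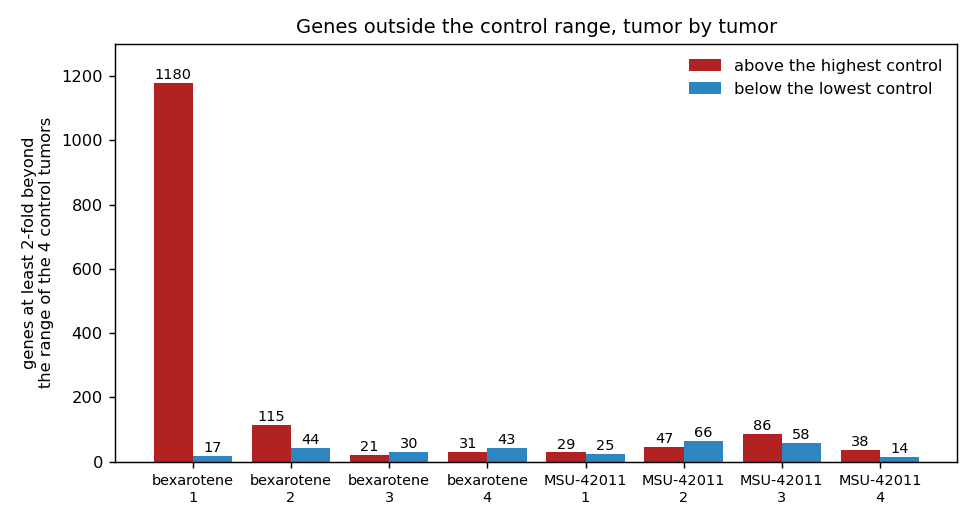
Number of genes at least 2-fold above the highest control tumor (red bars) or below the lowest (blue bars) in each of the 4 bexarotene and 4 MSU-42011 tumors, out of 15504 tested genes. Bexarotene tumor 1 has 1180 genes above the range, against 21 to 115 in the other 7 tumors, while its 17 genes below lie within the 14 to 66 of those tumors.

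The 4 genes beyond the control range in every bexarotene tumor were Nrg1 (chr8:31814551-32884029, minus strand), Comp (chr8:70373558-70382066, plus strand), Dpp10 (chr1:123321471-124045559, minus strand) and Scgb1b27 (chr7:34021483-34022881, plus strand), at the coordinates the files give. Nrg1 encodes neuregulin 1, a ligand of the ERBB3 and ERBB4 receptors that pair with HER2, and stood at 10.3, 8.92, 4.41 and 10.9 CPM in bexarotene tumors 1 to 4 and at 0.949, 1.09, 1.12 and 0.776 CPM in control tumors 1 to 4. The lowest bexarotene tumor was thus well above the highest control, and the log2 fold change was 3.12 ± 0.76 and 3.03 ± 0.79 without tumor 1, with adjusted p of 0.762 and 0.978 in edgeR and, with all tumors, of 0.0121 in DESeq2. Comp encodes a glycoprotein of the cartilage and tendon matrix. It stood at 616, 746, 1551 and 863 CPM with bexarotene and at 169, 34.0, 281 and 175 CPM in the controls, a log2 fold change of 2.52 ± 0.57 and of 2.68 ± 0.58 without tumor 1. Unlike the collagens described further on, Comp was lowest in tumor 1 among the bexarotene tumors.

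Dpp10, which encodes a peptidase-like protein without enzyme activity that binds potassium channels, stood at 15.1, 20.7, 29.8 and 29.7 CPM with bexarotene and at 6.35, 2.75, 4.76 and 0.560 CPM in the controls. Its log2 fold change was 2.73 ± 0.68, with an adjusted p of 0.0150 in DESeq2. Scgb1b27, a secretoglobin of glandular secretions, stood at 12.6, 25.6, 6.20 and 18.0 CPM with bexarotene and at 0.178, 0.426, 2.62 and 0.345 CPM in the controls, and its log2 fold change of 4.13 ± 1.4 was the largest of the genes that separated the diets. Car6, a secreted carbonic anhydrase that was picked after its values were seen, was also higher in all 4 bexarotene tumors than in the controls, with 1379, 2469.9, 1815 and 2415 CPM against 445, 183, 823 and 498 CPM. In the MSU-42011 tumors 1 to 4, Nrg1 stood at 1.21, 9.21, 0.542 and 1.17 CPM, Scgb1b27 at 1.59, 18.8, 0.108 and 0.126 CPM and Car6 at 594, 3041, 300.1 and 499 CPM. MSU-42011 tumor 2 alone thus lay at the level of the bexarotene tumors for these 3 genes, whereas Comp stood at 591, 189, 395 and 699 CPM and Dpp10 at 23.6, 12.3, 3.52 and 6.08 CPM.

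With no minimum fold, 176 genes (1.14%) were higher in all 4 bexarotene tumors than in all 4 control tumors and 138 (0.890%) were lower in all 4. For a single gene this is the most that 4 tumors against 4 can show, since the 35 splits of 8 tumors give an exact two-sided permutation p of 0.0286 at the smallest. Tumors assigned to the diets at random would separate, in one direction or the other, with this probability for each gene. The shares of 1.14% and 0.890% together do not exceed it. The size of the class is thus no larger than random assignment would give on average, and membership alone does not show an effect of the diet. The median log2 fold change of the 176 genes was 0.66 and that of the 138 genes -0.36, and without tumor 1 they were 0.54 and -0.35, beside 0.030 and 0.0062 over all tested genes. Tumor 1 was the highest bexarotene tumor for 75 of the 176 genes, tumor 2 for 60, tumor 3 for 18 and tumor 4 for 23. Of the 176 genes, 21 were also among the 1072 that lay 2-fold above the control range in tumor 1 alone. A ratio of at least 1.5 between the medians of the groups was reached by 55 of the higher and 26 of the lower genes. Scaled by total counts alone, 150 of the 176 higher genes and 68 of the 138 lower genes still separated the diets.

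Among the higher genes with the smallest p, several encode secreted proteins. Adamts8, a secreted metalloproteinase, stood at 21.1, 6.92, 6.93 and 9.38 CPM with bexarotene and at 3.26, 2.18, 1.60 and 2.84 CPM in the controls. Its log2 fold change was 2.17 ± 0.46 and 1.64 ± 0.39 without tumor 1, and DESeq2 gave an adjusted p of 0.00742. Tnfaip6, which encodes a hyaluronan-binding protein induced in inflammation, stood at 3.28, 1.38, 1.11 and 1.23 CPM against 0.237, 0.189, 0.481 and 0.474 CPM, so that tumor 1 was highest but the other 3 still lay above all controls. C1qtnf2, a secreted protein of the C1q and TNF family, stood at 8.45, 1.67, 0.387 and 0.981 CPM against 0.178, 0, 0.160 and 0.345 CPM, and its log2 fold change was 4.02 ± 1.1 with tumor 1 and 2.51 ± 0.85 without it. The control levels rest on 4 to 11 reads for Tnfaip6 and 0 to 8 reads for C1qtnf2. Bexarotene tumor 3 and control tumor 4 both had 8 reads of C1qtnf2, so only the scaling of the libraries set them apart. Il18, a cytokine of the interleukin 1 family, was even among the treated tumors, between 2.88 and 3.51 CPM, against 1.72, 1.28, 1.02 and 1.29 CPM in the controls, with a log2 fold change of 1.23 ± 0.29. These levels rest on 19 to 95 reads per tumor. In the MSU-42011 tumors Il18 stood at 1.92, 1.45, 2.93 and 2.85 CPM. By qPCR and by staining of the protein, the study reported an increase of Il18 with MSU-42011 and none with bexarotene. Its charted qPCR level with bexarotene was below that of the controls, and it described an apparent scarcity of the protein there. For bexarotene this direction is opposite to that of the read counts, and the cause was not tested. The qPCR and the bexarotene staining used other numbers of mice than the sequencing. Il18 overlaps Bco2 on the other strand, and over the 12 tumors 555 reads were counted on Il18 and 144 on Bco2.

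Other genes of this rank act inside cells. Dagla, the lipase that makes the endocannabinoid 2-arachidonoylglycerol, stood at 13.7, 14.5, 15.3 and 13.2 CPM with bexarotene and at 8.31, 8.81, 10.3 and 8.40 CPM in the controls, a log2 fold change of 0.67 ± 0.16 that was 0.68 ± 0.17 without tumor 1. Dmxl2, a partner of the proton pump of vesicles, stood at 23.1, 24.9, 16.6 and 24.5 CPM against 12.7, 13.8, 16.0 and 13.1 CPM, and Ddhd2, a lipase of intracellular membranes and triglycerides, at 128, 105, 121 and 107 CPM against 58.5, 98.6, 64.6 and 41.2 CPM. For Dmxl2 and Ddhd2 the lowest bexarotene tumor was close to the highest control tumor. All 10 higher genes named by this rule separated the diets under each of the other scalings that were tried.

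**Figure D2:**
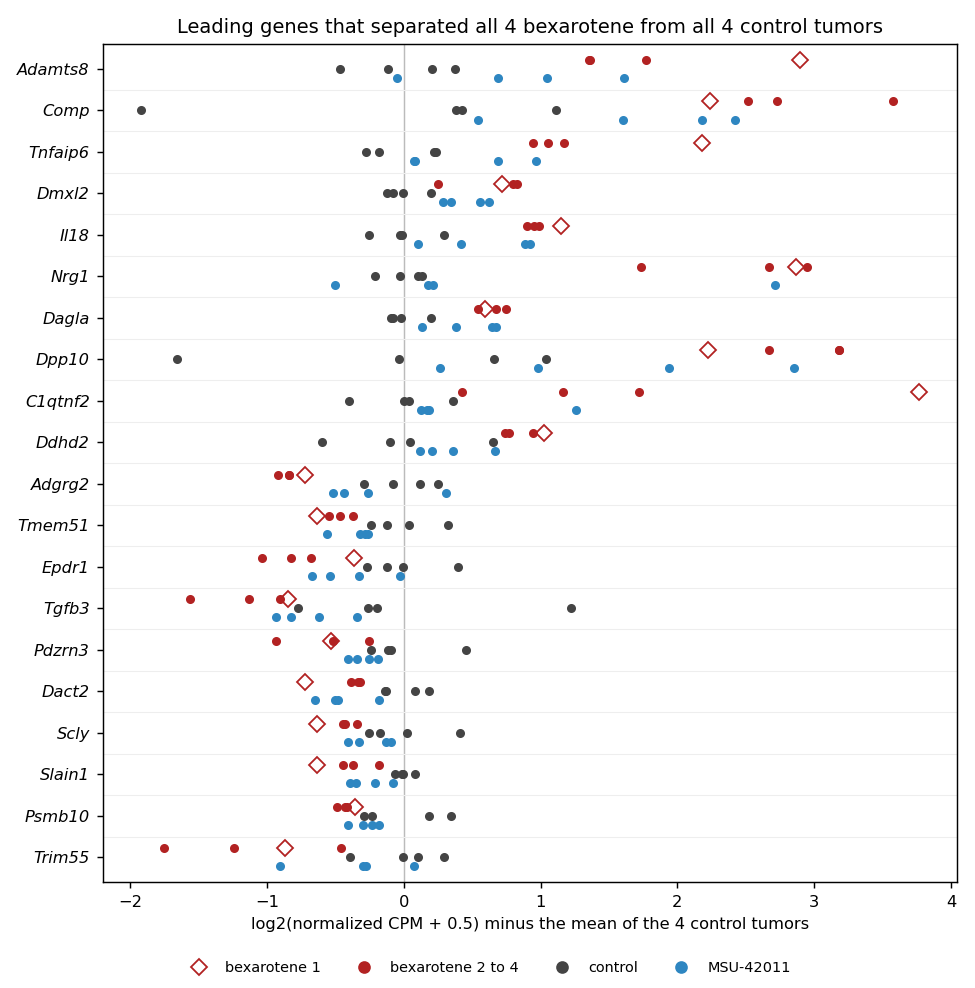
Level of the 10 higher and 10 lower genes with the smallest p among those that separated all 4 bexarotene from all 4 control tumors, as log2(normalized CPM + 0.5) minus the mean of the control tumors, 1 point per tumor (open diamonds, bexarotene 1; red, bexarotene 2 to 4; black, control; blue, MSU-42011). Nrg1 lies apart from the controls in all 4 bexarotene tumors and in 1 MSU-42011 tumor, and most of the lower genes differ by less than 1 on the log2 scale.

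The lower genes differed by less. Adgrg2, an adhesion G protein-coupled receptor, stood at 11.4, 9.87, 10.5 and 10.5 CPM with bexarotene and at 22.9, 20.8, 18.1 and 15.6 CPM in the controls. The treated tumors lay within a narrow range below all controls, and the log2 fold change was -0.87 ± 0.20 and -0.91 ± 0.22 without tumor 1. Tgfb3, the cytokine transforming growth factor beta 3, stood at 293, 241, 281 and 178 CPM against 461, 1235, 309 and 441 CPM, where control tumor 2 was far above the rest. Its log2 fold change was -1.30 ± 0.36. Epdr1, an ependymin-related lysosomal protein, had a log2 fold change of -0.75 ± 0.20, with at most 17.8 CPM in a bexarotene tumor and up to 30.5 CPM in a control, and Trim55, a RING-finger protein known from striated muscle, at 1.44, 1.00, 2.08 and 0.552 CPM against 2.20, 3.03, 3.31 and 3.84 CPM. The remaining 6 genes of the rule, Tmem51, Pdzrn3 (a ubiquitin ligase), Dact2 (an inhibitor of Wnt and Nodal signaling), Scly (selenocysteine lyase), Slain1 (a microtubule-associated protein) and Psmb10 (a subunit of the immunoproteasome), had log2 fold changes between -0.57 and -0.41. Tmem51 and Tgfb3 overlap other genes on the opposite strand, which held fewer than 10% of their reads. Scaled by total counts or as FPKM, Epdr1, Pdzrn3 and Psmb10 no longer separated the diets, nor did Pdzrn3 with the size factors of DESeq2.

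Some of the lower genes were picked after their values were seen, from those that already separated the diets, and support no statement on a group. Eef2, the elongation factor that moves the ribosome along the message, stood at 3149, 2666, 3367 and 3082 CPM with bexarotene and at 3553, 4121, 3954 and 3696 CPM in the controls, a log2 fold change of -0.32 ± 0.14. Eef1a1, the factor that delivers aminoacyl-tRNA, stood at 7539.6, 6716, 7854 and 7748 CPM against 8816, 8951, 8852 and 8459 CPM, and Eif3f, a subunit of initiation factor 3, at 251, 261, 284 and 290.1 CPM against 345, 316, 330.4 and 311 CPM. Eif3i, Eif3l, Eif6, Rpl3 and Rps4x were lower in all 4 tumors as well, with log2 fold changes between -0.50 and -0.25, but of these only Rpl3 separated the diets when total counts were used for scaling, as Eef2, Eef1a1 and Eif3f also did. Of the 26 cytosolic ribosomal protein genes listed, 2 were lower in all 4 tumors, beside 0.890% of all tested genes, and the list's median per tumor was -0.36, -0.039, -0.22 and 0.097 in bexarotene tumors 1 to 4 and between -0.081 and 0.086 in the controls. Tumor 4 lay above the controls for this list, and without tumor 1 the median log2 fold change was -0.066. Actg1, the cytoskeletal gamma actin, which was also picked after its values were seen, stood at 1497, 817, 1793 and 1221 CPM against 1952 to 2212 CPM in the controls.

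To show the DNA in front of these genes, the RefSeq sequence around their transcription starts (build GRCm38.p6, 250 bases before to 50 after the start) was searched on both strands for the hexamer AGGTCA, the sequence that RXR and its partners read. RefSeq windows were matched by symbol for 121 of the 176 higher genes and 93 of the 138 lower genes. The hexamer was in the window of 20 of the 121 (16.5%) and of 12 of the 93 (12.9%), against 14.9% of the 11125 tested genes with a window. Of the genes above the control range only in tumor 1, 1051 did not also separate the diets. The hexamer was in 114 of the 763 of these that were matched (14.9%). Direct repeats of this hexamer or of its variants AGTTCA or GGGTCA or GGTTCA, with 1, 4 or 5 bases between them, which RXR dimers with different partners prefer, were in 0 windows of the genes that separated the diets, and in 0.288%, 0.027% and 0.036% of all windows of tested genes. The share with the hexamer was thus near that of all genes, and these letters say nothing of whether a receptor was bound. The 250 bases before the start of Scgb1b27, the gene with the largest fold change among those that separated the diets, hold the hexamer in 2 places, and those of Rps4x, which was lower, in 1 place. They are printed 5′ to 3′ on the strand of the gene, and the capitals mark the hexamer, which reads AGGTCA on the opposite strand in each.
Scgb1b27, chr7:34021231-34021480, plus strand: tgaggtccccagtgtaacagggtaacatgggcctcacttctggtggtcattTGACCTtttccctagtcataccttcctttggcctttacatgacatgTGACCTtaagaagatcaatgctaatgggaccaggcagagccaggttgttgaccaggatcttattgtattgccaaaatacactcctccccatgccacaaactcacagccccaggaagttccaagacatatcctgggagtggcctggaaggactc
Rps4x, chrX:102189392-102189641, minus strand: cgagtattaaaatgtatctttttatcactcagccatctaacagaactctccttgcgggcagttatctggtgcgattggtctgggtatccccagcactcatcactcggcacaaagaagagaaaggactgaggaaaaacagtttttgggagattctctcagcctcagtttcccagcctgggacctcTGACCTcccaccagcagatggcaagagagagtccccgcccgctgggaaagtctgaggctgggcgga

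The genes beyond the control range in bexarotene tumor 1 alone were led by genes of connective tissue. F13a1, the A chain of coagulation factor XIII, which tissue macrophages express, stood at 216 CPM in tumor 1, at 9.01, 2.95 and 2.08 CPM in tumors 2 to 4 and at 4.75, 3.50, 3.37 and 0.819 CPM in the controls. Tumor 1 was 45.4-fold above the highest control, and the log2 fold change of 4.22 ± 1.3 with all tumors was 0.60 ± 0.61 without tumor 1. Col8a1, a short-chain collagen, stood at 429.9 CPM in tumor 1, at 20.9, 5.62 and 2.70 CPM in tumors 2 to 4 and at 12.5, 1.42, 3.10 and 5.21 CPM in the controls. Fbn1, fibrillin 1 of elastic microfibrils, stood at 512, 29.0, 10.5 and 4.54 CPM with bexarotene and at 18.0, 3.88, 5.93 and 9.05 CPM in the controls. Lrrc15, a surface protein of activated fibroblasts, stood at 112, 6.87, 0.726 and 0.184 CPM against 3.86, 0.0473, 0.374 and 0 CPM.

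For these 4 genes tumors 3 and 4 lay among the controls, and tumor 2 lay above the highest control without reaching a 2-fold distance. The other 6 leading genes were Emilin2 and Col5a1, which encode matrix proteins, Islr, a marker of mesenchymal cells, Serpinf1, a secreted serpin known as PEDF, Gpc3, a glypican, and Nxpe5, and tumor 1 stood 25.8- to 35.6-fold above the highest control for all but Col5a1, which had 378 CPM there and at most 16.4 CPM in a control. Islr overlaps Islr2 on the same strand. Without tumor 1 the log2 fold changes of the 10 genes ran from -0.067 for Emilin2 to 1.32 for Lrrc15. Over all 1072 genes the median log2 distance from the mean of the controls was 2.24 in tumor 1 and 0.35, 0.00099 and -0.23 in tumors 2 to 4, and the median log2 fold change was 1.13 with all tumors and 0.065 without tumor 1. Tumor 2 was above the highest control for 442 of the 1072 genes, tumor 3 for 137 and tumor 4 for 112. The MSU-42011 tumors were above it for 247, 90, 597 and 177 of them, so that MSU-42011 tumor 3 exceeded the controls for more of these genes than bexarotene tumors 2 to 4 did.

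**Figure D3:**
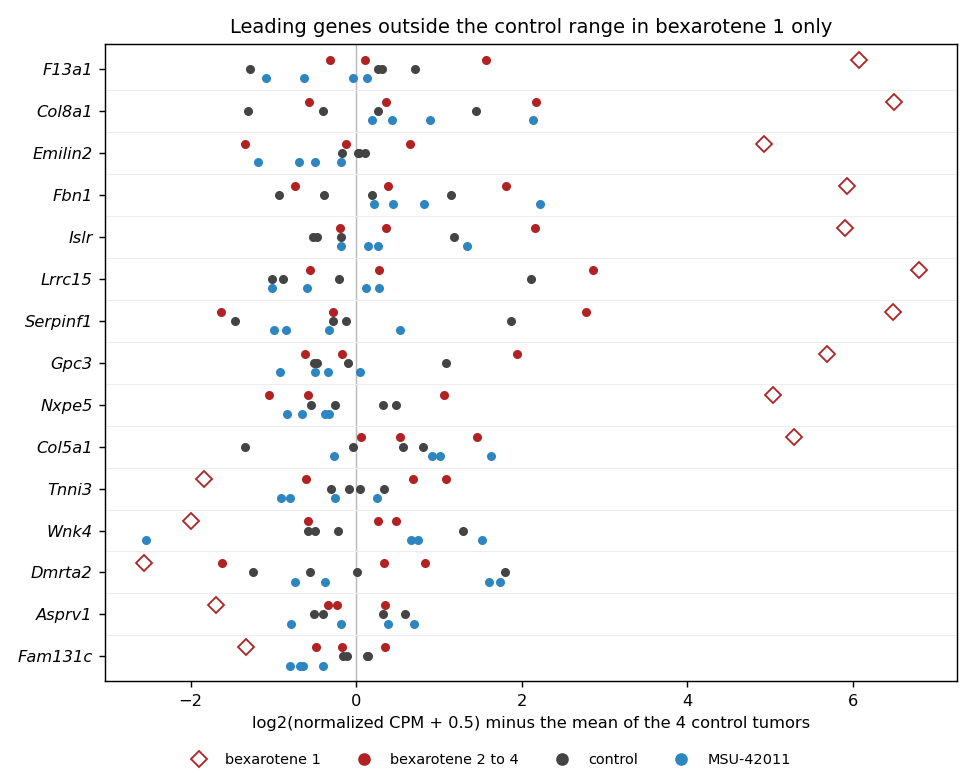
Level of the 10 genes farthest above and the 5 farthest below the control range among those outside it in bexarotene tumor 1 only, as log2(normalized CPM + 0.5) minus the mean of the control tumors, 1 point per tumor with the symbols of the plot of separated genes. For the 10 upper genes the open diamond of tumor 1 lies far to the right of all 11 other tumors, and for the 5 lower genes bexarotene tumors 2 to 4 lie around the controls.

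Only 13 genes lay below the control range in tumor 1 alone, of which the 5 farthest below are given. Tnni3, a troponin of striated muscle, stood at 2.88 CPM in tumor 1, at 25.2, 7.41 and 18.9 CPM in tumors 2 to 4 and at 9.30 to 14.7 CPM in the controls. Wnk4, a kinase that regulates ion transport, stood at 9.74, 26.9, 56.9 and 48.9 CPM against 26.9 to 100.2 CPM, and Dmrta2, a transcription factor, at 1.73, 3.77, 16.2 and 22.9 CPM against 5.04 to 45.4 CPM. Asprv1, a protease of the skin, and Fam131c completed the 5 genes farthest below, with 2.73 and 7.05 CPM in tumor 1. For Tnni3, tumors 2 and 4 lay above the controls and tumor 3 below them. Tnni3 overlaps Dnaaf3 on the same strand, with 3207 reads counted on Dnaaf3 and 2695 on Tnni3 over the 12 tumors.

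Lists of genes put these patterns beside each other. The 55 lists, written by hand for cell types, receptors, receptor targets and cell programs, held 729 tested genes, of which 5 were higher and 6 lower in all 4 bexarotene tumors and 138 lay above the control range in tumor 1 alone. Over all tested genes these shares were 1.14%, 0.890% and 6.91%, and 1180 of 15504 genes lay above the range in tumor 1 with or without others, which is the background for the counts of each list that follow. The fibroblast list was the farthest from the controls. All 18 of its genes lay at least 2-fold above the control range in tumor 1, 10 of them also in tumor 2, and 0 separated the diets. The summed level of the list was 13648, 1130.1, 281 and 209.7 CPM in bexarotene tumors 1 to 4 and between 133 and 588 CPM in the controls, and all 18 genes were tested. Its median log2 fold change was 4.03, with 14 genes higher at an unadjusted p under 0.05 (background 4.48%), and without tumor 1 it was 0.95, with 1 such gene (background 1.60%).

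Col1a1, the main chain of collagen I, stood at 3561, 279.6, 82.1 and 52.4 CPM with bexarotene and at 162, 26.3, 59.9 and 90.3 CPM in the controls. Col3a1, collagen III, stood at 3099.6, 207, 36.5 and 28.4 CPM against 85.3, 14.2, 32.8 and 50.1 CPM, and Fn1, fibronectin, at 1518, 156, 25.2 and 9.63 CPM against 47.9, 7.10, 19.5 and 22.6 CPM. Tumor 1 stood far above, tumor 2 moderately above, and tumors 3 and 4 within the controls, among which control tumor 1 was the highest for all 3 genes. Of 18 genes of fibrillar collagens and their cross-linking, 14 lay above the control range in tumor 1 and 6 of these in tumor 2 too, and the median log2 fold change of 3.40 was 0.60 without tumor 1. The values were 1.62 and 0.16 for 17 proteoglycan genes, of which 10 lay above the range in tumor 1. For 10 genes linked to the epithelial to mesenchymal transition, Fn1 among them, they were 1.56 and 0.21, and all 10 lay above the range in tumor 1.

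Among 21 tested matrix metalloproteinase and ADAMTS genes, with their inhibitors, 17 lay above the control range in tumor 1, 14 of them in tumor 1 alone, and 2 were higher in all 4 bexarotene tumors (1.14% of all tested genes). Mmp2, the gelatinase of stromal cells, stood at 350.0, 34.4, 13.8 and 8.28 CPM with bexarotene and at 14.5, 6.01, 9.03 and 9.18 CPM in the controls. The median log2 fold change of the list was 1.49, and 0.092 without tumor 1, where 1 gene passed the unadjusted threshold in each direction. The 2 genes that separated the diets were Adamts8, given above, and Adamts1, a protease of proteoglycans, which stood at 49.8, 5.10, 6.05 and 4.78 CPM against 3.98, 2.56, 3.47 and 4.57 CPM. For Adamts1 the fold change rested on tumor 1: it was 2.18 ± 0.70 on the log2 scale with all tumors and 0.54 ± 0.29 without it.

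Vessel and macrophage genes followed tumor 1 without tumor 2. Of 15 endothelial genes, 12 lay above the control range in tumor 1 and 0 in tumor 2, and the median log2 fold change was 0.64, or 0.12 without tumor 1. Pecam1, an adhesion protein between endothelial cells, stood at 112, 26.9, 33.8 and 30.8 CPM against 45.8, 18.5, 27.4 and 42.0 CPM in the controls. Of 16 macrophage genes, 13 did so in tumor 1 alone, and the median changed sign, from 0.67 with all tumors to -0.28 without tumor 1, when 0 of the 16 genes were higher with bexarotene. Adgre1, the macrophage antigen F4/80, stood at 43.4, 4.82, 9.06 and 5.33 CPM against 8.96, 8.10, 5.08 and 6.64 CPM. Complement genes had a median of 1.67, and 0.15 without tumor 1, with 10 of 14 above the range in tumor 1. Genes of T cells (8 tested), NK cells (3) and neutrophils (3) held 0 genes above the range in tumor 1. Of 4 tested B and plasma cell genes, 3 lay above it. The 12 listed genes of these cells summed to 52.7 CPM in tumor 1 and to 8.54 to 16.5 CPM in the controls. Ly6g, Camp, Ngp, Elane and Mpo of neutrophils and Ms4a1 of B cells had at most 3 reads in each of the 8 tumors.

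Muscle genes were high in bexarotene tumor 1 and in control tumor 1. The 14 skeletal muscle genes summed to 363 CPM in bexarotene tumor 1, to 10.5 to 13.3 CPM in bexarotene tumors 2 to 4 and to 12.1 to 196 CPM in the controls, and Acta1, skeletal muscle actin, stood at 95.2 CPM in bexarotene tumor 1 and at 60.3 CPM in control tumor 1, against at most 0.947 CPM in the other 6 tumors. The luminal epithelial list moved the other way. Its median per tumor was -0.76, -0.14, 0.058 and 0.12 in bexarotene tumors 1 to 4 and -0.20 to 0.17 in the controls. Epcam, an adhesion protein of epithelial cells, stood at 1353, 1814, 2295 and 2233 CPM with bexarotene and at 2003 to 2533 CPM in the controls. How far the makeup of tumor 1 sets the level of any gene in it was not tested.

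**Figure D4:**
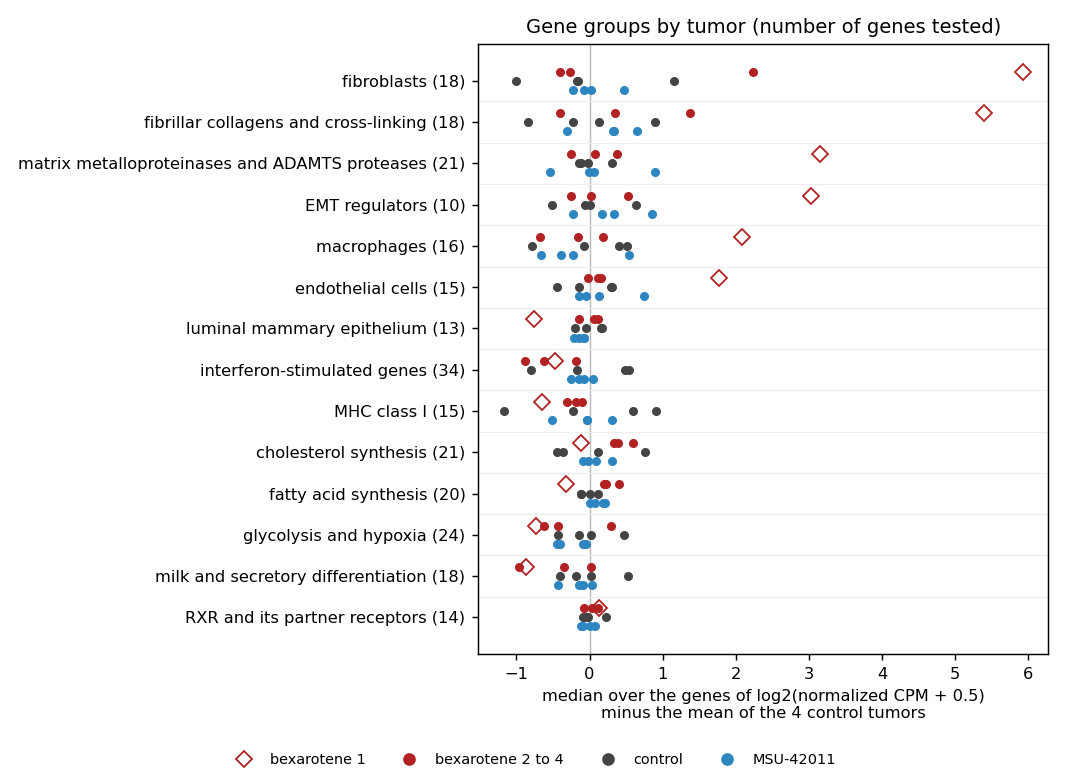
Median over the tested genes of 14 lists of log2(normalized CPM + 0.5) minus the mean of the control tumors, 1 point per tumor (open diamonds, bexarotene 1; red, bexarotene 2 to 4; black, control; blue, MSU-42011). Bexarotene 1 reaches 5.92 for fibroblasts and -0.76 for luminal epithelium, while bexarotene 2 to 4 lie within or near the controls for most lists.

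Leaving tumor 1 aside, other genes set bexarotene tumors 2 to 4 apart from the controls. In 148 genes (0.955%) bexarotene tumors 2 to 4 lay above all 4 controls and tumor 1 did not, and in 122 genes (0.787%) they lay below and tumor 1 did not. This class was set up after the values were seen. Several genes of lipid synthesis were among its higher genes. They were picked from it, and their share of the class was not set beside that of all tested genes. Scd2, a stearoyl-CoA desaturase that makes monounsaturated fatty acids and an LXR target, stood at 1024, 1114 and 1455 CPM in bexarotene tumors 2 to 4, at 578, 372, 830.2 and 772 CPM in the controls and at 482 CPM in bexarotene tumor 1. Its log2 fold change was 0.67 ± 0.31 with all tumors and 0.91 ± 0.24 without tumor 1.

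Acsl3, which activates long-chain fatty acids, stood at 37.0, 38.8 and 48.4 CPM in tumors 2 to 4, at 23.4 to 33.9 CPM in the controls and at 25.1 CPM in tumor 1. Lpcat3, which builds unsaturated phospholipids, stood at 87.0, 82.1 and 108 CPM in these tumors, at 64.6 to 81.6 CPM in the controls and at 62.3 CPM in tumor 1, and it overlaps Emg1 on the other strand. Srebf1, the master transcription factor of fatty acid synthesis, stood at 3183, 2545 and 3533 CPM against 1757 to 2504 CPM in the controls and 1422 CPM in tumor 1, and Acaca, acetyl-CoA carboxylase, at 91.8, 109 and 179 CPM against 79.6 to 90.5 CPM and 71.2 CPM. Mid1ip1, a partner of acetyl-CoA carboxylase, was higher in all 4 bexarotene tumors, with 21.9, 31.4, 24.1 and 28.4 CPM against 11.8, 8.05, 18.9 and 16.5 CPM in the controls. For Acsl3, Lpcat3, Srebf1 and Acaca tumor 1 lay within or below the controls, beside its luminal epithelial median of -0.76, whose part in these values was not tested.

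As a list, the 20 genes of fatty acid synthesis had 1 gene higher at an unadjusted p under 0.05 with all tumors (background 4.48%) and 6 higher but 0 lower without tumor 1 (background 1.60% and 1.75%). The median log2 fold change was 0.14 and 0.29. Fasn, fatty acid synthase, stood at 337, 809.6, 467 and 933 CPM with bexarotene and at 332, 388, 551 and 464 CPM in the controls, so that tumor 3 lay among the controls, and Scd1 at 1551, 2493, 5609 and 7946 CPM against 2388, 3589, 960.4 and 2069 CPM. Of 14 tested LXR targets, 2 were higher with all tumors, and 4 were higher and 0 lower without tumor 1, against the same background. The median log2 fold change of the LXR targets without tumor 1 was 0.07, and 8 of the 14 were positive. Their per-tumor medians overlapped, at 0.43, 0.16, 0.20 and -0.25 with bexarotene and 0.21, 0.58, -0.70 and -0.076 in the controls. Scd1, Scd2 and Srebf1 are also in the fatty acid list. The list counts without tumor 1 rest on the same tumors as the class above, so they are not separate evidence for it. Of 21 cholesterol synthesis genes, 2 were higher without tumor 1 (background 1.60%), and 20 of the 21 fold changes were positive, beside 7914 of the 15466 genes tested in both fits. The per-tumor median of this list was -0.12, 0.39, 0.33 and 0.60 in the bexarotene tumors and -0.36, -0.45, 0.76 and 0.11 in control tumors 1 to 4, so that control tumor 3 lay above all treated tumors. In the MSU-42011 tumors the fatty acid list had medians of 0.077, 0.00043, 0.19 and 0.21.

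The lower genes of the class included Klhl29, a kelch-like protein, and Rxra, given above. Klhl29 stood at 6.44, 3.15 and 4.90 CPM in bexarotene tumors 2 to 4, at 10.3, 14.3, 9.57 and 13.3 CPM in the controls and at 13.7 CPM in tumor 1. It was the 1 gene that DESeq2 called without tumor 1, with a log2 fold change in edgeR of -1.29 ± 0.26. Frmd4a, a scaffold protein of cell polarity, stood at 14.8, 13.4 and 10.1 CPM against 15.4 to 22.2 CPM in the controls and 31.7 CPM in tumor 1. Gpm6b, a membrane proteolipid, stood at 12.8 to 18.5 CPM against 22.2 to 33.0 CPM, and at 22.4 CPM in tumor 1. For these genes tumor 1 lay within or above the controls.

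**Figure D5:**
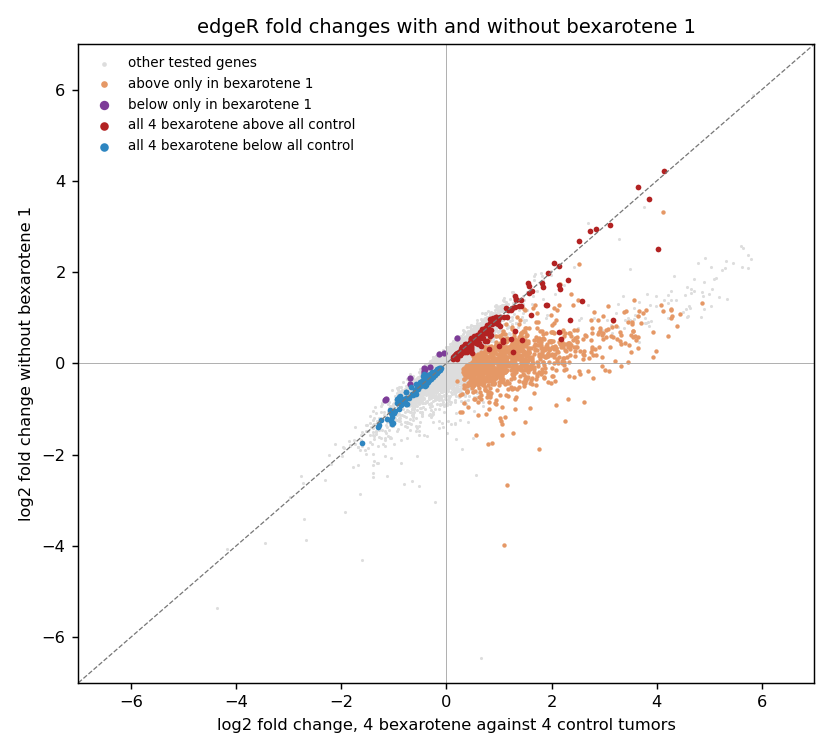
EdgeR log2 fold change of each tested gene with all 4 bexarotene tumors (x axis) and without bexarotene tumor 1 (y axis); red and blue points separated all 4 bexarotene from all 4 control tumors, orange and purple points lay at least 2-fold outside the control range in tumor 1 only, and the dashed line marks equal values. Most of the red and blue points lie near the dashed line, and the orange points spread along the x axis around 0 on the y axis. Over all genes above the range in tumor 1 only, including 21 that also separated the diets, the median is 1.13 on the x axis and 0.065 on the y axis.

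Of the 6 genes that DESeq2 called with all tumors, Nrg1, Adamts8, Dpp10 and Gm12872 separated the diets, and Fndc1 and Kif26b did not. Gm12872, a predicted gene, stood at 4.35, 14.3, 1.70 and 15.4 CPM with bexarotene and at 0.771, 0.0947, 1.44 and 0.560 CPM in the controls. Fndc1, a protein with fibronectin repeats, stood at 106, 6.39, 0.872 and 0.184 CPM against 0.475, 0.284, 0.909 and 0.388 CPM, and Kif26b, a kinesin-like protein, at 34.1, 3.38, 0.435 and 0.306 CPM against 0.142 to 0.415 CPM. For both of these genes tumors 1 and 2 lay above the controls and tumor 4 lay within or below them, and the edgeR fold change of Fndc1 of 5.79 ± 1.6 on the log2 scale was 2.28 ± 0.88 without tumor 1.

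Targets of the other RXR partners held few genes at the unadjusted threshold. Of 22 tested PPAR targets, 1 was higher at an unadjusted p under 0.05 and 0 lower, beside 4.48% and 1.96% of all tested genes, with a median log2 fold change of -0.11. The count of 1 gene is near that background. Vnn1, a pantetheinase and PPAR target, was the 1 that separated the diets, at 3.62 to 4.50 CPM with bexarotene and 1.60, 0.710, 3.05 and 1.81 CPM in the controls, while Angptl4, a PPAR-driven inhibitor of lipoprotein lipase, stood at 69.0, 5.82, 9.30 and 3.07 CPM against 17.0, 113, 12.9 and 10.8 CPM. Against the same background, of 9 tested retinoic acid receptor targets 1 was higher, with a median of 0.084, and of 7 targets of the vitamin D, pregnane X, farnesoid X and thyroid hormone receptors 0 were, with a median of 0.22. The receptors themselves, 14 tested genes of RXRs and their partners, had a median of 0.031, and 0 passed this threshold with all tumors. Nr2f2, an orphan nuclear receptor that was picked after its values were seen, separated the diets, at 19.4, 9.63, 11.7 and 10.3 CPM against 8.37, 7.39, 8.93 and 7.71 CPM.

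Interferon-stimulated, MHC class I, glycolysis and milk genes had negative medians, with tumors that overlapped between the diets. Of 34 interferon-stimulated genes, 33 had a negative log2 fold change, whereas 8572 of all 15504 tested genes had a positive one, and 12 were lower at an unadjusted p under 0.05 (background 1.96%), with a median of -0.52, and without tumor 1 the count was 8 (background 1.75%) and the median -0.60. The control tumors themselves were spread, with list medians of 0.54, -0.80, -0.17 and 0.48 against -0.47, -0.62, -0.18 and -0.88 with bexarotene. Irf7, the transcription factor that amplifies interferon responses, stood at 53.4, 68.0, 91.8 and 62.2 CPM against 212, 61.5, 103 and 177 CPM. Control tumors 1 and 4 were high and control tumor 2 lay at the level of the treated tumors. MHC class I genes behaved alike in the controls, at 0.59, -1.17, -0.23 and 0.91 in tumors 1 to 4, and had a median log2 fold change of -0.55 with 2 of 15 genes lower at this threshold (background 1.96%).

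Of 24 genes of glycolysis and hypoxia, 3 were lower at an unadjusted p under 0.05 both with tumor 1 (background 1.96%) and without it (background 1.75%), and the median log2 fold change was -0.23. Ldha, lactate dehydrogenase A, separated the diets, with 664, 539.6, 845 and 804 CPM against 1091, 1411, 1208 and 1270.1 CPM and a log2 fold change of -0.80 ± 0.26. Pkm, pyruvate kinase, did not, with 977, 972, 1812 and 1354 CPM against 1812, 1724, 1807 and 2046 CPM. In the MSU-42011 tumors Ldha stood at 695, 1419, 545 and 762 CPM. Among growth factors and ERK feedback genes, Nrg1, Tgfb3 and Etv1, a transcription factor downstream of ERK, separated the diets, the last with 373, 407, 426 and 403 CPM against 333, 284, 343 and 341 CPM. Of the WNT list, Lef1, a nuclear partner of beta-catenin, was lower in all 4 tumors, with 6.42, 8.68, 1.45 and 5.21 CPM against 9.85, 12.8, 8.98 and 11.9 CPM, and of the heat shock list Hspa1b, with 30.5, 60.1, 58.0 and 57.3 CPM against 87.4, 60.8, 63.7 and 63.2 CPM, although Hspa1b did not separate the diets when scaled by total counts or as FPKM. Genes of milk and secretory differentiation had a median of -0.43, with 4 of 18 lower at an unadjusted p under 0.05 and 2 without tumor 1, against the same background. Mitosis genes had a median of 0.15, and 0 of 22 passed the threshold of an unadjusted p under 0.05.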

How the data were processed

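Poly(A) RNA from frozen sections of 4 bexarotene, 4 control and 4 MSU-42011 tumors was sequenced. The authors deposited raw read counts per gene and FPKM values; the submitters' processing notes name STAR 2.6.1d, featureCounts 1.5.0-p3 and DESeq2. The strand setting and genome build are not given in the sources used here. Gene coordinates equalled those of GENCODE M21 (GRCm38) for 98.3% of the genes present in both, and a gene cannot be told from an overlapping one where strand was not used.

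Counts were scaled by TMM and tested with edgeR 4.0.16 (quasi-likelihood F test, filterByExpr, 1 mean for each of the 3 groups, Benjamini-Hochberg adjustment, R 4.3.3). All 12 tumors share 1 estimate of spread. SEs are the fold change divided by the root of F. Alternatives used DESeq2 1.42.0 and limma 3.58.1 (voom weights, and log2 FPKM). Scripts were tested on simulated counts. Levels are TMM-normalized CPM; the pseudocount was 0.5.

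A gene separated the diets where the 4 tumors of 1 diet lay above all 4 of the other. Named genes were RXR genes and Erbb2, up to 10 higher and 10 lower separated genes with the smallest p, and up to 10 above and 5 below the control range in bexarotene replicate 1, each with a mean of at least 1 CPM and no predicted symbol, genes called by edgeR or DESeq2, and list members that separated the diets or had the highest levels. Scgb1b27, Car6, Mid1ip1, Nr2f2, Angptl4, Adgre1, Actg1, genes of translation and genes of bexarotene replicates 2 to 4 alone were named after their values were seen. Members and lists were chosen with earlier results of these data known. Where 2 identifiers share a symbol, the one with more reads was used. Replicates are tumors of separate mice; replicate numbers did not pair them.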

Additional observations from a re-analysis of the deposited data

Results flagged for a closer look

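Dixon's ratio, the gap of an extreme tumor to its nearest neighbour divided by the range of the group, was computed on the log2 scale for the named genes in 82 groups of 4 tumors, and 2 groups exceeded the 95% limit. Chance alone gives about 1 in 20 such groups. Rxra in the control tumors gave 0.890, with control replicate 2 the highest at 118 CPM and the other 3 at 80.8 to 84.2 CPM. Dact2 in the bexarotene tumors gave 0.835, with replicate 1 the lowest at 68.0 CPM and the other 3 at 85.9 to 89.9 CPM.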

How the results depend on the processing

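EdgeR called 0 genes under every alternative tried, as did limma (voom with tumor weights, log2(FPKM + 1) and log2(FPKM + 0.1)); DESeq2 called 6 with its defaults, 7 without its Cook's distance filter (Dmbt1 was added, with 115 reads in bexarotene replicate 1 and 0 in the other tumors) and 1 without bexarotene replicate 1. With an unadjusted p under 0.05, 694 genes lay higher and 304 lay lower. The counts were 1404 and 462 with no filter on low counts, 377 and 182 by limma on log2(FPKM + 1), and 392 and 178 when 0.1 was added instead. Higher genes numbered 453 with only the bexarotene and control tumors fitted, 356 by voom with tumor weights, 1152 by DESeq2 without the Cook's filter, 336 by DESeq2 without bexarotene replicate 1, and 203 with both groups fitted alone without it, an alternative chosen after seeing the data. Leaving out 1 tumor at a time gave 250 (without bexarotene replicate 1) to 1071 (without bexarotene replicate 3) higher and 158 (without bexarotene replicate 2) to 529 (without bexarotene replicate 3) lower genes.

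Replicate numbers came from the labels alone. Deviations of same-numbered bexarotene and control tumors correlated at 0.35, -0.057, 0.045 and 0.12, so the numbers were not taken to pair them. With the number as a replicate block, 0 genes were called and 410 lay higher and 301 lay lower at the unadjusted threshold.

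The genes that separated the diets numbered 314 (176 above, 138 below). Those below numbered 84 with total counts and 84 with FPKM. A ratio of medians of at least 1.5 left 81, 55 above and 26 below. Without 1 tumor, which asks less of a gene, there were 482 to 1041, with 276 to 514 above and 206 to 527 below. Genes outside the control range in bexarotene replicate 1 alone numbered 1085, and 468 (467 above, 1 below) at a 4-fold distance. The 13 below became 7 with total counts, 150 at a 1.5-fold distance, 39 and 7 with pseudocounts of 0.1 and 2, and 18 to 32 without 1 control tumor.

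Of 50 named genes, 4 changed sign somewhere. The log2 fold change of Tnni3 was -0.11 with the replicate block, and ran from -0.28 (without bexarotene replicate 2) to 0.55 with 1 tumor left out. With 1 tumor left out, that of Emilin2 ran from -0.067 (without bexarotene replicate 1) to 3.71, that of Wnk4 from -0.74 to 0.24 (without control replicate 1) and that of Dmrta2 from -1.31 to 0.34 (without control replicate 2). The causes were not tested. For the 55 list medians, 556 values under alternatives stayed within the spread of the controls and 49 moved by more, 23 of them without bexarotene replicate 1. At the depth of the shallowest of the 8 tumors, a level under 0.174 CPM before normalization rests on fewer than 3 reads. In bexarotene replicate 4, 3 reads stand at 0.184 normalized CPM.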
